A study of Mus musculus with 36 samples.

Results

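Mouse embryonic fibroblasts (MEFs) express most of the genes that cut, or keep from being cut, the collagens and proteoglycans around them. The genes described here are the matrix metalloproteases (Mmp), the ADAMTS proteases, the ADAMTS-like proteins and the tissue inhibitors of metalloproteases (Timp), chosen by symbol alone from an RNA-seq table of 55487 genes, with Adamts16 left out. They number 50. Of these, 43 passed the filter on low counts and were tested among 15489 genes. The other 7 were not tested: Mmp20 had 0 counts in every library, and Adamts13, Adamts19, Mmp1a, Mmp7, Mmp21 and Mmp24 had at most 9 in any.

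Matrix metalloproteases are zinc enzymes that are made as inactive precursors, and different members prefer fibrillar collagen (collagenases), denatured collagen (gelatinases) or a wide range of matrix proteins (stromelysins). ADAMTS enzymes are secreted proteases that include the aggrecanases, which cleave aggrecan and versican, and the procollagen N-proteinases, which trim new collagen, whereas ADAMTS-like proteins lack the protease domain and sit on microfibrils. TIMPs bind the active site of these enzymes, and Timp3, which is held in the matrix, inhibits the aggrecanases as well. Glucocorticoids are known to lower collagenase and stromelysin genes, many of which carry an AP-1 site near their start.

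The glucocorticoid receptor (GR) of these MEFs was wild type (GRwt/wt), mutated in the dimer interface of its DNA-binding domain (GRD/D), mutated in its ligand-binding domain (GRL/L), mutated at both places (GRD+L/D+L), or absent (GRko/ko). The cells received vehicle or 1 µM dexamethasone (Dex), a synthetic glucocorticoid, for 5 h. Every group held 3 libraries, from cultures that the series design attributes to different mice. Run 1 held GRwt/wt cultures 1 to 3, GRD/D, GRD+L/D+L and GRko/ko, and run 2 held GRwt/wt cultures 4 to 6 and GRL/L. The labels give the FVB/NJ strain for every library, whereas the methods describe the parents of the knockout on another inbred background. The GRL and GRD+L alleles came from gene editing of GRwt/D zygotes.

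Library totals ran from 15280166 to 28662608 counts, and run 2 was the deeper run. Nr3c1, which encodes GR, was at 15.9 to 18.0 CPM (counts per 1e6 counts of the library) in GRko/ko with vehicle against 67.2 to 74.3 in GRwt/wt of run 1. The sum of 10 fibroblast markers was 31804 CPM or more in every library, carried by Fn1, Col1a1, Col1a2 and Vim, while Lum ran from 1.58 to 307 CPM over the libraries and Pdgfra from 15.6 to 435, both highest in run 2. Xist and 4 Y-linked genes (Ddx3y, Eif2s3y, Kdm5d and Uty) split the libraries by genotype: Xist was at 2464 counts or more in all libraries of GRwt/wt of run 1 and of GRD/D and at 236 or fewer in the others, which had 2145 or more counts of the Y-linked genes. Comparisons of GRD+L/D+L or GRko/ko with GRwt/wt of run 1, and of GRD+L/D+L with GRD/D, therefore also compare cultures of different sex. The same holds for the runs of GRwt/wt compared with each other. Genotype, run and sex cannot be told apart in these comparisons. For GRko/ko this extends to strain, if its parents had the other background that the methods describe. GRD/D and GRL/L have the same pattern as the GRwt/wt cultures of their own run. Some libraries stood apart by marker lists. In GRD/D, vehicle library 2 summed 32863 CPM over the 10 fibroblast markers, against 42009 and 49504 in vehicle libraries 1 and 3. Vehicle culture 6 of GRwt/wt summed 49.1 CPM over 6 epithelial markers, mostly Krt5 and Krt14, against 4.09 and 4.70 in cultures 4 and 5. Vehicle culture 3 of GRko/ko summed 602 CPM over 11 cartilage markers against 251 and 187 in cultures 1 and 2, and 69.3 CPM over 5 osteoblast markers against 35.9 and 41.8.

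All tests compared groups within one model of the 12 combinations of genotype, treatment and run (edgeR, quasi-likelihood F test, with p adjusted by Benjamini-Hochberg over 15489 genes), and a gene passed at an adjusted p of at most 0.05. Values after ± are approximate standard errors of the log2 fold change, and levels are CPM on scaled library sizes. Per kb of exon, the highest GRwt/wt vehicle levels of run 1 were those of Timp1 (739 ± 38.1 CPM per kb, SD, n = 3) and Timp2 (412 ± 11.1), followed by Mmp14 (147 ± 4.25), Timp3 (124 ± 2.94) and Mmp2 (100.2 ± 3.10). In run 2 the inhibitor Timp1 was again the highest (451 ± 36.2), and Timp2 (267 ± 5.63) and Mmp2 (262 ± 16.3) did not differ by more than their spread.

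Dex moved many of these genes in GRwt/wt. In run 1, 11 of the 43 passed, 3 higher and 8 lower, whereas 13.9% of all genes passed, 7.74% higher and 6.2% lower. In run 2, 29 passed, 12 higher and 17 lower (all genes: 31.6%, with 14.9% higher and 16.7% lower), and all 11 of run 1 were among them with the same direction. In GRL/L 16 passed, 4 higher and 12 lower (all genes: 19.1%, with 8.79% higher and 10.4% lower). In GRD/D 10 passed, 6 higher and 4 lower (all genes: 11.9%, with 5.63% higher and 6.24% lower). In GRD+L/D+L 2 passed, 1 each way (all genes: 5%, with 3.08% higher and 1.92% lower), so that this count was near the background. In GRko/ko none did by edgeR or by DESeq2 (all genes: 0%), and by edgeR 2 of the 43 had an unadjusted p under 0.05 (all genes: 859 of 15489). Changes of at least 1 log2 unit were found in 2 members in run 1 of GRwt/wt (all genes: 2.01%), 12 in run 2 (all genes: 4.49%), 4 in GRL/L (all genes: 2.56%), 1 in GRD/D (all genes: 0.981%) and 0 in GRD+L/D+L (all genes: 0.4%). The median log2 fold change of the 43 was −0.05 in run 1 and −0.11 in run 2 of GRwt/wt, beside 0.00 and −0.01 over all genes, so that the members moved both ways around a median near that of all genes. The GRD/D count was 5 without Dex library 3 or vehicle library 2 and 6 without Dex library 2. Over the 6 Dex comparisons, 31 of the 43 passed at least once and 12 never did, among them Timp2 and Adamts12. The share of all genes passing at least once is not given here, so these counts are not set against a background.

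**Figure D1:**
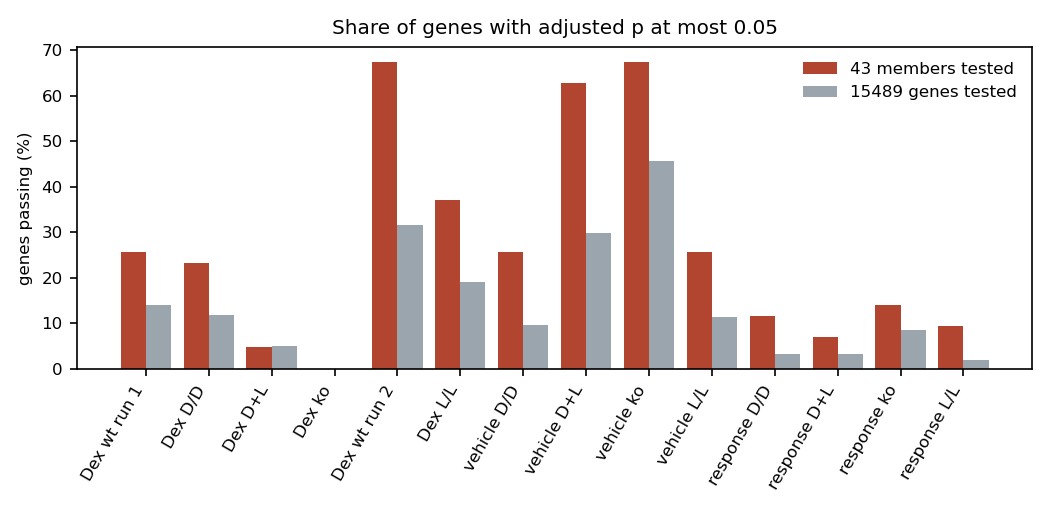
Percent of the 43 members tested (red) and of all 15489 genes tested (grey) with an adjusted p of at most 0.05 in each comparison. The 2 bars are nearly level for Dex in D+L, both are at 0 for Dex in the knockout (ko), and the red bar is the taller in the other comparisons shown.

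**Figure D2:**
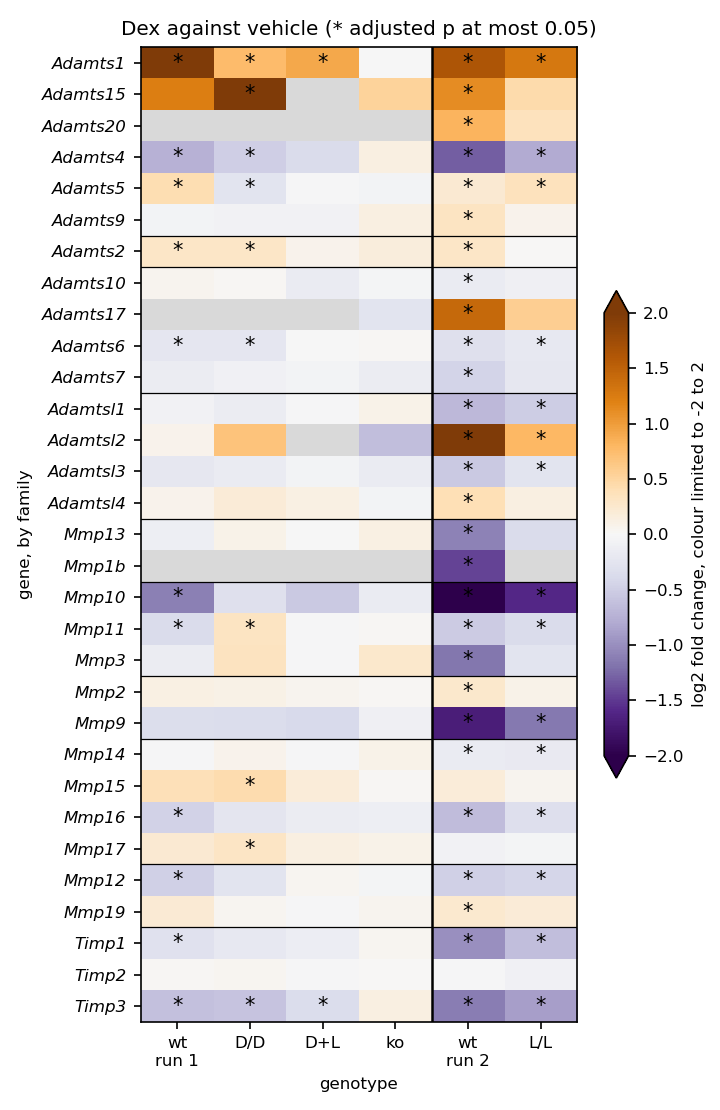
Log2 fold change of Dex against vehicle for members that passed in at least 1 genotype, and Timp2, in rows by family, with genotypes of run 1 left and of run 2 right of the thick line. Asterisks mark adjusted p of at most 0.05, grey cells have a mean count under 10, and Timp4 is left out for its low counts in run 1. Adamts1 and Timp3 carry asterisks in every column except ko.

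Among the aggrecanases, Adamts1, which cleaves aggrecan and versican, rose with Dex in every genotype that makes GR. In GRwt/wt of run 1 it was at 157, 174 and 181 CPM with vehicle and at 790, 765 and 763 with Dex, a log2 fold change of 2.18 ± 0.06 (adjusted p = 4.66e-26). In GRD/D the vehicle libraries were at 114, 117 and 125, and those with Dex at 205, 201 and 193. For GRD+L/D+L these levels were 140, 152 and 148, and 283, 265 and 280. No Dex library overlapped a vehicle library of its genotype, and every Dex library of the 2 mutants lay below every Dex library of GRwt/wt. The log2 fold changes were 0.75 ± 0.06 in GRD/D (adjusted p = 1.80e-12) and 0.91 ± 0.06 in GRD+L/D+L (adjusted p = 1.20e-13).

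The Dex response of Adamts1 differed from GRwt/wt of the same run by −1.43 ± 0.08 log2 units in GRD/D (adjusted p = 1.33e-15) and by −1.27 ± 0.08 in GRD+L/D+L (adjusted p = 3.28e-14). The responses of these mutants differed from each other by 0.16, with an interval of −0.00 to 0.32 that did not pass (adjusted p = 0.492). In GRko/ko vehicle levels of 108, 123 and 103 overlapped Dex levels of 114, 111 and 107. In run 2 the log2 fold change was 1.64 ± 0.05 in GRwt/wt and 1.29 ± 0.05 in GRL/L, and this smaller difference also passed (−0.35 ± 0.08, adjusted p = 0.0066).

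Adamts5, another aggrecanase and the neighbour of Adamts1 on chromosome 16 (53059 bp apart), moved less and not in one direction. In GRwt/wt of run 1 it was at 56.5, 57.4 and 63.1 CPM with vehicle and at 78.3, 79.9 and 77.7 with Dex. In GRD/D it was at 58.3, 58.6 and 61.6 with vehicle and at 51.5, 49.5 and 48.2 with Dex. The groups did not overlap in either genotype, and Dex was the higher group in GRwt/wt and the lower group in GRD/D. The log2 fold changes were 0.41 ± 0.06 (adjusted p = 1.69e-06) and −0.26 ± 0.06 (adjusted p = 0.00368), and their difference was −0.67 ± 0.09 (adjusted p = 8.45e-07). Each of these calls held in every alternative run. In GRD+L/D+L the log2 fold change was −0.03 ± 0.06, which did not pass, and it differed from GRwt/wt by −0.44 ± 0.08 (adjusted p = 5.11e-04). In run 2 Adamts5 rose in GRwt/wt (0.23 ± 0.05) and in GRL/L (0.36 ± 0.05), with no difference that passed between them (interval −0.03 to 0.29).

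Adamts4, also an aggrecanase, fell. In GRwt/wt of run 1 it was at 27.1, 21.4 and 26.3 CPM with vehicle and at 12.6, 15.8 and 16.6 with Dex (log2 fold change −0.74 ± 0.11, adjusted p = 3.01e-06). In run 2 it went from 37.6, 37.1 and 41.4 to 13.8, 15.9 and 17.1 in GRwt/wt (−1.31 ± 0.09), and from 37.2, 35.7 and 35.0 to 21.3, 21.1 and 20.1 in GRL/L (−0.79 ± 0.09). No groups overlapped, and the Dex libraries of GRL/L lay above those of GRwt/wt. It also fell in GRD/D (−0.49 ± 0.11, adjusted p = 0.0013), and was at −0.36 ± 0.13 in GRD+L/D+L without passing (adjusted p = 0.0983).

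Of the remaining proteoglycan-cleaving members, Adamts9 rose only slightly in GRwt/wt of run 2 (0.33 ± 0.09, adjusted p = 0.00371). Adamts15 was a gene of run 2, going from 513, 419 and 442 counts to 823, 1049 and 954 in GRwt/wt (1.12 ± 0.19, adjusted p = 1.17e-05, and 0.133 with DESeq2). In run 1 it had at most 62 counts in any library. Its pass in GRD/D rested on vehicle counts of 8, 5 and 8 against 23, 22 and 52, and was lost without Dex library 3 (log2 fold change 1.82, adjusted p = 0.181) or without vehicle library 2 (2.11, adjusted p = 0.0947). Adamts20 rose in GRwt/wt of run 2 (0.82 ± 0.22), and Adamts8 passed in no Dex comparison.

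**Figure D3:**
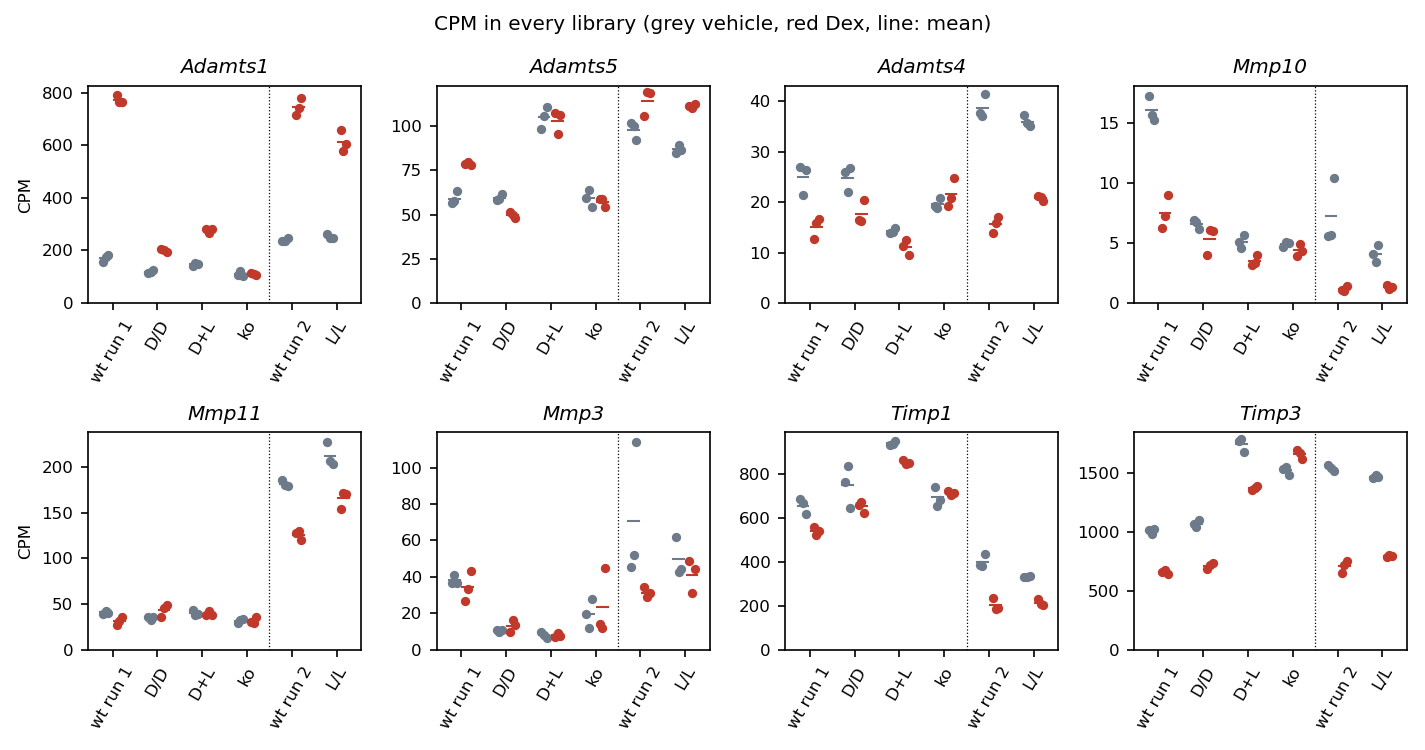
CPM of 8 members in each of 36 libraries, vehicle in grey and Dex in red, with lines at the means of 3 libraries and a dotted line between the runs. The Dex points of Adamts1 lie near 800 in wild type of run 1 and at 283 or below in D/D and D+L, those of Adamts5 lie above vehicle in wild type and below it in D/D, and one Mmp3 vehicle point of run 2 stands at 114.

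The procollagen N-proteinase Adamts2 rose in both runs of GRwt/wt, by 0.28 ± 0.08 and 0.29 ± 0.08. The pass of run 1 was lost without Dex library 3 (0.22, adjusted p = 0.135), vehicle library 1 (0.26, adjusted p = 0.0859) or vehicle library 3 (0.28, adjusted p = 0.051). Among ADAMTS proteases of other kinds, Adamts6 fell a little in GRwt/wt of both runs, GRD/D and GRL/L (−0.19 to −0.31). Adamts17, which acts on microfibrils, rose in GRwt/wt of run 2 from 28, 36 and 30 counts to 64, 81 and 96 (1.43 ± 0.27, adjusted p = 6.50e-05). Adamts12 passed in no genotype, with a log2 fold change of at most 0.21. The fall of Adamts10 in GRwt/wt of run 2 (−0.16 ± 0.06, adjusted p = 0.0259) was lost without Dex library 4 (−0.13), vehicle library 4 (−0.12) or vehicle library 5 (−0.16).

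Of the ADAMTS-like genes, Adamtsl1 to Adamtsl4 passed in GRwt/wt of run 2 and none passed in run 1, and the difference between the runs passed for Adamtsl1 and Adamtsl2 alone. In run 2 Adamtsl2, which binds fibrillin microfibrils, went from 1.52, 1.57 and 1.26 CPM to 5.86, 7.60 and 5.64 in GRwt/wt (2.13 ± 0.19, adjusted p = 1.03e-11) and from 3.41, 3.23 and 2.57 to 4.92, 5.66 and 5.44 in GRL/L (0.80 ± 0.17, adjusted p = 4.24e-04). The vehicle libraries of GRL/L all lay above those of GRwt/wt, a vehicle difference of 1.08 ± 0.20, while the Dex libraries of both genotypes were close to each other. The difference of the responses was −1.33 ± 0.25 (adjusted p = 0.00134). Adamtsl1 fell in both genotypes of run 2 (−0.67 ± 0.10 in GRwt/wt and −0.51 ± 0.09 in GRL/L). In run 1 its log2 fold change in GRwt/wt was −0.06 ± 0.13. Adamtsl4 rose in GRwt/wt of run 2 (0.39 ± 0.10).

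The inducible stromelysins and the collagenase Mmp13 lie in a cluster on chromosome 9, and 10 members lie there, each within 500000 bp of the next: Mmp13, Mmp12, Mmp1b, Mmp3, Mmp1a, Mmp10, Mmp8, Mmp27, Mmp20 and Mmp7. RefSeq promoter sequences (GRCm38.p6, 250 bases before to 50 after the start) matched 36 of the 50 symbols. The remaining members, among them Adamts4, Adamts5, Mmp2 and Mmp9, had no sequence and were not searched. The AP-1 motif TGAGTCA, searched on both strands, was in 7 of the 10 cluster members (Mmp13, Mmp12, Mmp1b, Mmp3, Mmp1a, Mmp10 and Mmp7), in 0 of the 26 others with a promoter, and in 5.2% of all promoters of this length. The palindromic glucocorticoid response element (AGAACA, then any 3 bases, then TGTTCT) was in no member promoter and in 0.00913% of all. These matches describe letters in a short window and are no evidence of binding. The 120 bases before the start of Mmp13 (chr9:7272394-7272513, plus strand), Mmp3 (chr9:7445702-7445821, plus strand) and Mmp10 (chr9:7502222-7502341, plus strand) are shown because these cluster genes passed as lower with Dex in GRwt/wt of run 2, beside those of Adamts1 (chr16:85803114-85803233, minus strand), which rose, with the AP-1 motif or its reverse complement in capitals.
Mmp13: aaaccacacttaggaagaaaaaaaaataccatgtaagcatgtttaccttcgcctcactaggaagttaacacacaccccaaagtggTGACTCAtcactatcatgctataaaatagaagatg
Mmp3: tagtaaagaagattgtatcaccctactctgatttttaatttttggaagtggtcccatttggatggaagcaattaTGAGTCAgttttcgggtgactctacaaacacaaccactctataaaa
Mmp10: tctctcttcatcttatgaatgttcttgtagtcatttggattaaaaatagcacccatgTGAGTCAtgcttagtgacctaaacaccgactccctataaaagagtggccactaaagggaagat
Adamts1: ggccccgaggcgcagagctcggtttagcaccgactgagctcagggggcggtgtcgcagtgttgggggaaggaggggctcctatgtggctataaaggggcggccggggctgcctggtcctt

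Mmp10, a stromelysin of the cluster, had the largest fall of the set in both runs of GRwt/wt. In GRwt/wt of run 1 it went from 17.3, 15.7 and 15.2 CPM to 6.21, 7.26 and 8.96 (−1.10 ± 0.16, adjusted p = 2.67e-06). In run 2 it went from 5.61, 5.65 and 10.4 to 1.07, 0.988 and 1.39 in GRwt/wt (−2.64 ± 0.22) and from 4.09, 3.39 and 4.82 to 1.53, 1.15 and 1.34 in GRL/L (−1.60 ± 0.23). The groups did not overlap in these 3 comparisons. In GRD/D the log2 fold change was −0.30 ± 0.19 and in GRD+L/D+L −0.54 ± 0.22, neither of which passed. Their vehicle libraries, at 6.90 CPM or less, were already at about the level of GRwt/wt with Dex. The differences from the GRwt/wt response did not pass either (0.80 ± 0.26 in GRD/D, adjusted p = 0.0837, and 0.56 ± 0.28 in GRD+L/D+L, adjusted p = 0.418).

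Mmp3, Mmp9 and Mmp13 passed as lower in GRwt/wt of run 2 and did not pass in run 1. The vehicle library that stood apart by epithelial markers, culture 6, was also the highest for each of these genes. The difference between the runs did not pass for Mmp3 (adjusted p = 0.158), and those of Mmp9 (−0.72) and Mmp13 (−0.75) did not pass without culture 6. Mmp3 was at 45.5, 51.8 and 114 CPM with vehicle and at 34.5, 28.7 and 30.9 with Dex. Its log2 fold change was −1.17 ± 0.28 (adjusted p = 0.00117), and without culture 6 it was −0.63 and did not pass (adjusted p = 0.072). The gelatinase Mmp9 was at 16.6, 14.3 and 40.9 with vehicle and at 7.68, 7.22 and 7.33 with Dex, and passed with culture 6 (−1.69 ± 0.25) and without it (−1.06, adjusted p = 2.01e-05). Mmp13 was at 64.5, 67.4 and 97.1 with vehicle and at 33.8, 35.8 and 38.4 with Dex, and also passed both ways (−1.08 ± 0.18, and −0.87 without culture 6, adjusted p = 3.67e-04). The part of the epithelial markers in these values was not tested. Mmp9 fell in GRL/L too (−1.15 ± 0.25, adjusted p = 6.43e-04), from 22.2, 15.1 and 15.8 CPM to 8.01, 5.11 and 10.5.

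Mmp1b, a collagenase gene, dropped in GRwt/wt of run 2 from 17, 14 and 19 counts to 3, 8 and 6 (−1.45 ± 0.39, adjusted p = 0.00359). It overlaps Mmp12 on the opposite strand, the strand setting of the counting is not given in the sources used here, and it has a close paralog, Mmp1a, so its reads are uncertain. Mmp12, the macrophage elastase, fell by similar amounts in GRwt/wt of both runs (−0.47 ± 0.16 and −0.47 ± 0.11) and in GRL/L (−0.43 ± 0.11). The pass in run 1 was lost without Dex library 1 (−0.41), Dex library 2 (−0.40), vehicle library 1 (−0.48) or vehicle library 2 (−0.36), and that of GRL/L without Dex library 1 (−0.27) or vehicle library 1 (−0.34).

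Mmp11 (stromelysin-3, on chromosome 10) was the other gene with opposite directions. In GRwt/wt of run 1 it went from 39.1, 42.7 and 40.2 CPM to 27.4, 31.8 and 35.2 (−0.37 ± 0.09, adjusted p = 0.00512). In GRD/D it went from 36.1, 32.9 and 35.3 to 35.3, 45.9 and 48.5 (0.32 ± 0.09, adjusted p = 0.0188). The GRD/D groups overlapped in 1 Dex library, and the others lay above all vehicle libraries. The rise in GRD/D was lost without Dex library 2 (0.27, adjusted p = 0.113), Dex library 3 (0.23, adjusted p = 0.164) or vehicle library 2 (0.28, adjusted p = 0.0907), and the fall in GRwt/wt without Dex library 1 (−0.28, adjusted p = 0.0741). The difference of the responses, 0.68 ± 0.13 (adjusted p = 7.28e-04), passed in every alternative run. In run 2 Mmp11 fell in GRwt/wt (−0.53 ± 0.07) and GRL/L (−0.36 ± 0.07). It overlaps Chchd10 on the opposite strand.

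The log2 fold changes of Mmp14, Mmp2 and Mmp16 were below 1 in size in every genotype. Mmp14, a membrane-bound protease that activates Mmp2 together with Timp2, fell by 0.17 ± 0.04 in GRwt/wt of run 2 and by 0.18 ± 0.04 in GRL/L, and Mmp2 rose by 0.27 ± 0.05 in GRwt/wt of run 2. Mmp16, another membrane-type member, fell in GRwt/wt of both runs (−0.46 ± 0.09 and −0.65 ± 0.10) and in GRL/L (−0.32 ± 0.09). Mmp19 rose by 0.25 ± 0.07 in GRwt/wt of run 2. Mmp23 passed in no Dex comparison.

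Of the inhibitors, Timp3 fell in every genotype that makes GR. In GRwt/wt of run 1 it went from 1017, 982 and 1028 CPM to 657, 680 and 641 (−0.61 ± 0.04, adjusted p = 2.12e-14). In GRD/D it went from 1069, 1042 and 1098 to 683, 718 and 733 (−0.59 ± 0.04, adjusted p = 2.60e-13), and in GRD+L/D+L from 1771, 1788 and 1678 to 1356, 1377 and 1392 (−0.34 ± 0.04, adjusted p = 1.24e-07). No groups overlapped, and the Dex levels of GRD/D and GRwt/wt were close. The response of GRD/D differed from that of GRwt/wt by 0.03, with an interval of −0.09 to 0.15, whereas that of GRD+L/D+L was weaker by 0.27 ± 0.06 (adjusted p = 0.0028). So the fall of Timp3 and the rise of Adamts1 were measured in the same GRD/D libraries with intervals of the difference from GRwt/wt that include 0 for the first gene and not for the second.

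In run 2 Timp3 fell from 1570, 1543 and 1515 CPM to 653, 722 and 750 in GRwt/wt (−1.12 ± 0.04) and from 1454, 1487 and 1468 to 789, 805 and 795 in GRL/L (−0.88 ± 0.04). The Dex libraries of GRL/L lay above those of GRwt/wt, and the responses differed by 0.24 ± 0.06 (adjusted p = 0.0186). That difference was lost with the libraries of run 2 alone (0.24, adjusted p = 0.116), and also without Dex library 2 (0.23) or vehicle library 1 (0.23) of GRL/L, or Dex culture 4 (0.18) or vehicle culture 4 (0.22) of GRwt/wt. In GRko/ko Timp3 went from 1533, 1549 and 1487 to 1698, 1668 and 1621, a log2 fold change of 0.13 ± 0.04 that did not pass (adjusted p = 0.642).

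Timp1, an X-linked soluble inhibitor, fell in GRwt/wt of run 1 from 684, 666 and 618 CPM to 558, 522 and 539 (−0.28 ± 0.07, adjusted p = 0.0049). In run 2 it fell from 385, 379 and 437 to 233, 184 and 188 (−0.99 ± 0.07), and in GRL/L from 331, 331 and 334 to 231, 207 and 203 (−0.64 ± 0.07). These groups did not overlap. It did not pass in GRD/D (−0.20 ± 0.07) or GRD+L/D+L (−0.14 ± 0.07), nor did the differences from GRwt/wt (intervals −0.12 to 0.29 and −0.06 to 0.35). Timp2 passed in no genotype, with log2 fold changes from −0.09 to 0.04. Timp4 had at most 3 counts in any library of run 1, so no fold is given there. In run 2 it rose from 17, 22 and 28 counts to 47, 51 and 46 in GRwt/wt (1.18 ± 0.24) and from 34, 25 and 26 to 104, 110 and 120 in GRL/L (2.19 ± 0.21).

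The Dex responses of the runs of GRwt/wt were themselves different. They differed in 9 of the 43 members (all genes: 7.09%), 8 of them with the lower log2 fold change in run 2 (all genes: 3.89% lower and 3.2% higher). Adamts1 rose less (−0.54 ± 0.08), and Timp3 (−0.51 ± 0.06), Timp1 (−0.71 ± 0.10) and Mmp10 (−1.53 ± 0.28) fell more. Mutants were therefore compared only with GRwt/wt of their own run. Against it, the response differed in 5 members in GRD/D, 2 higher and 3 lower (all genes: 3.29%, with 1.08% higher and 2.2% lower). In GRD+L/D+L it differed in 3, 1 higher and 2 lower (all genes: 3.23%, with 1.26% higher and 1.98% lower), and in GRko/ko in 6, 4 higher and 2 lower (all genes: 8.48%, with 3.8% higher and 4.68% lower). In GRL/L it differed in 4, 2 each way (all genes: 1.85%, with 0.646% higher and 1.2% lower). Differences of at least 1 log2 unit numbered 2 in GRD/D (all genes: 0.613%), 1 in GRD+L/D+L (all genes: 0.6%), 1 in GRko/ko (all genes: 1.69%), 1 in GRL/L (all genes: 0.123%) and 3 between the runs (all genes: 1.03%). One of the 5 in GRD/D is Timp4, at 3 counts or fewer, which is also among the 2 of at least 1 log2 unit. Without Dex library 2 or vehicle library 2 of GRD/D 3 passed. Without Dex library 2 of GRL/L, 2 passed there. Between GRD+L/D+L and GRD/D, 0 members differed by edgeR and 1 by DESeq2 (all genes by edgeR: 0.0775%). By edgeR 6 of the 43 had an unadjusted p under 0.05 (all genes: 1600 of 15489).

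Vehicle levels differed between the genotypes before any Dex was added. In GRD+L/D+L, 27 of the 43 members passed against GRwt/wt of run 1, 9 higher and 18 lower (all genes: 29.9%, with 13.9% higher and 15.9% lower). In GRko/ko 29 passed, 13 higher and 16 lower (all genes: 45.7%, with 24.4% higher and 21.3% lower). Timp4 is among these 13 with 3, 1 and 2 counts against 0, 0 and 0, at the floor. Its pass was lost without vehicle library 1 of GRko/ko and with the paper's formula. In GRD/D 11 passed, 4 higher and 7 lower (all genes: 9.55%, with 5.66% higher and 3.89% lower), and in GRL/L against run 2 also 11, 7 higher and 4 lower (all genes: 11.3%, with 6.88% higher and 4.47% lower). Differences of at least 1 log2 unit numbered 10 in GRD+L/D+L (all genes: 5.57%), 11 in GRko/ko (all genes: 14.2%), 3 in GRD/D (all genes: 2.12%) and 1 in GRL/L (all genes: 1.31%). The GRD/D count was 7 without GRwt/wt culture 1. The median log2 difference of the 43 was −0.28 in GRD+L/D+L, beside −0.01 over all genes.

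In GRD+L/D+L the inhibitors Timp1, Timp2 and Timp3 were higher, and Mmp3, Mmp9, Mmp10 and Mmp13 were lower. Timp2 was at 3113, 3046 and 3031 CPM against 1555, 1631 and 1630 in GRwt/wt (0.93 ± 0.04, adjusted p = 5.29e-19). Timp3 was higher by 0.79 ± 0.04 and Timp1 by 0.52 ± 0.07. All libraries of GRD+L/D+L lay above all of GRwt/wt for these 3 genes. Mmp3 was at 9.52, 7.99 and 6.53 CPM against 36.3, 41.0 and 36.7 (−2.24 ± 0.39, adjusted p = 2.39e-05), and Mmp10, Mmp13 and Mmp9 were lower by 1.66 ± 0.18, 1.45 ± 0.24 and 1.18 ± 0.27 log2 units. Adamts2 (−1.23 ± 0.09) and Adamts9 (−1.10 ± 0.13) were lower, and Adamts10 (0.91 ± 0.06), Adamts5 (0.83 ± 0.06) and Mmp23 (1.00 ± 0.08) were higher. In the same libraries 5 muscle markers summed 123 to 140 CPM against 22.4 to 28.2 in GRwt/wt, nearly all of it Des, with Myod1 and Myog at 0.128 CPM or less, and the fibroblast marker Pdgfra was at 15.9 to 17.7 CPM against 41.7 to 49.7. Their part in these differences was not tested.

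In GRD/D, Mmp3, Mmp10 and Mmp13 were lower than in GRwt/wt. Mmp3 was at 10.9, 9.78 and 10.5 CPM (−1.87 ± 0.37, adjusted p = 4.44e-04), Mmp13 at 12.5, 11.0 and 12.9 against 29.5, 36.9 and 32.3 (−1.44 ± 0.24) and Mmp10 at 6.90, 6.76 and 6.20 (−1.28 ± 0.17). All these libraries lay below those of GRwt/wt. Timp1, Timp2 and Timp3 did not pass (0.19 ± 0.07, 0.09 ± 0.04 and 0.08 ± 0.04). Adamts1 was lower by 0.52 ± 0.06 log2 units (adjusted p = 1.97e-08). Both mutants share the GRwt/wt vehicle libraries as their reference, so their differences are not independent of each other, and the mutants were not tested against each other with vehicle.

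In GRko/ko Mmp10 was lower (−1.71 ± 0.17), whereas Mmp13 did not pass (−0.09 ± 0.21). Mmp3 was at 19.6, 12.0 and 27.6 CPM (−0.96 ± 0.33, adjusted p = 0.0182) and lost its pass without vehicle library 2 of GRko/ko (−0.69) or of GRwt/wt (−0.90). Adamtsl1 (1.58 ± 0.11), Mmp23 (1.23 ± 0.08), Adamts10 (1.09 ± 0.06) and Timp3 (0.59 ± 0.04) were higher, and Adamts1 was lower (−0.61 ± 0.06). Adamts8 had 17, 43 and 25 counts against 3, 0 and 1, and Adamts17 5, 22 and 21 against 4, 0 and 3. The 11 cartilage markers summed 187 to 602 CPM in GRko/ko with vehicle, the highest in culture 3, against 31.9 to 35.7 in GRwt/wt of run 1. Without that culture 28 members passed in place of 29. The part of the cartilage markers in these differences was not tested. GRko/ko and GRwt/wt of run 1 also differed in sex, and in strain by the methods though not by the labels. These cannot be told apart from the loss of GR here.

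In GRL/L the largest differences were those of Adamtsl2 (1.08 ± 0.20, given above) and Adamts17 (0.96 ± 0.28, adjusted p = 0.0184), which did not pass without vehicle library 1 (0.97) or 3 (0.93) of GRL/L or vehicle culture 4 (0.87) or 6 (0.95) of GRwt/wt. Timp2 was at 1435, 1411 and 1372 CPM against 1053, 1013 and 1049 in GRwt/wt of run 2 (0.44 ± 0.04, adjusted p = 3.22e-09). Adamtsl4 (0.47 ± 0.09) and Mmp16 (0.42 ± 0.09) were higher, Mmp10 was lower (−0.81 ± 0.17, and −0.46 without vehicle culture 6, adjusted p = 0.0448), and Mmp3 and Mmp13 did not pass (−0.51 ± 0.27 and 0.04 ± 0.17). Timp1 was lower (−0.27 ± 0.07) and lost its pass without vehicle culture 6 (−0.20, adjusted p = 0.103). Without that culture 7 of the 43 members passed in place of 11, and without vehicle culture 4 also 7.

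**Figure D4:**
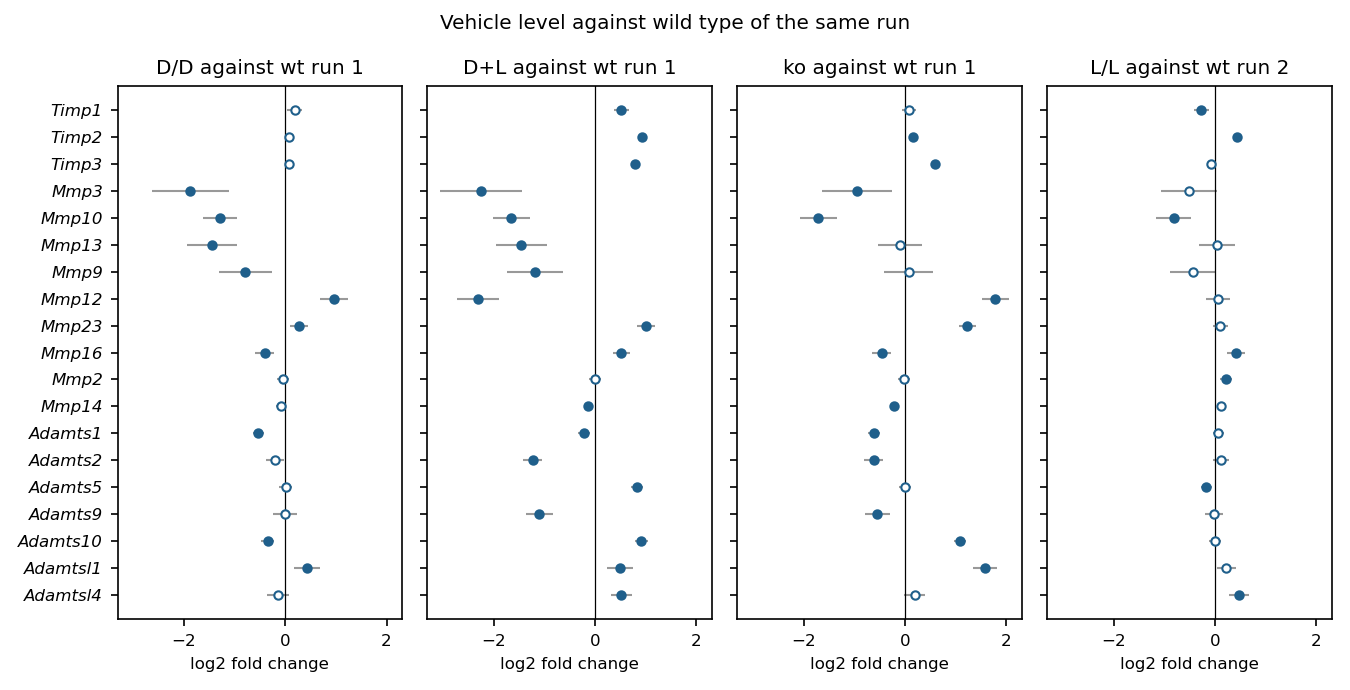
Log2 fold change of 19 members in vehicle-treated mutants against vehicle-treated wild type of the same run, with approximate 95% intervals as lines, filled points where the adjusted p is at most 0.05 and open points elsewhere. Mmp3, Mmp10 and Mmp13 lie left of 0 in D/D and D+L, Timp1, Timp2 and Timp3 lie right of 0 in D+L, and Mmp12 lies left in D+L and right in D/D and ko.

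Within run 1, Mmp12, the macrophage elastase, went up in some mutants and down in another, together with macrophage markers. With vehicle it was at 17.1, 19.9 and 14.7 CPM in GRwt/wt of run 1, at 32.4, 36.2 and 31.9 in GRD/D (0.96 ± 0.14), at 1.90, 3.84 and 4.69 in GRD+L/D+L (−2.31 ± 0.20) and at 62.6, 58.6 and 56.5 in GRko/ko (1.78 ± 0.13). The genotypes did not overlap. In the same libraries 13 macrophage markers summed 198 to 351 CPM, 714 to 783, 30.8 to 38.6 and 3088 to 3433. Run 2 did not show this parallel. Its vehicle sums were 871 to 1035 CPM in GRL/L and 486 to 511 in GRwt/wt. There Mmp12 was at 44.2, 36.4 and 37.4 CPM in GRL/L and 34.1, 41.0 and 37.9 in GRwt/wt, which overlapped and did not pass. In GRD+L/D+L the defining markers Adgre1, Itgam and Fcgr1 were at 1.05, 0.068 and 0.068 CPM or less, with all 13 present at 10 or more counts in at least 1 vehicle library of every other genotype. Mmp8 had 73, 77 and 49 counts in GRko/ko with vehicle and 5, 6 and 6 in GRwt/wt, and Mmp27 had 1, 0 and 1 in GRD+L/D+L and 8, 10 and 8 in GRwt/wt. In these bulk samples, fewer cells of a type and less RNA per cell cannot be told apart, and the part of macrophages in these values was not tested. With Dex the macrophage sum was 209 to 352 CPM in GRwt/wt of run 1, 458 to 518 in run 2 (486 to 511 with vehicle) and 744 to 940 in GRL/L (871 to 1035 with vehicle). Single markers went both ways within these sums. In GRL/L Csf1r was at 40.9 to 46.3 CPM with vehicle and 28.3 to 37.1 with Dex, whereas Mrc1 was at 33.5 to 40.5 and 46.1 to 62.5. For GRwt/wt of run 2, Csf1r was at 18.5 to 23.3 and 16.8 to 17.5, and C1qb at 10.3 to 10.6 and 17.9 to 19.7.

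**Figure D5:**
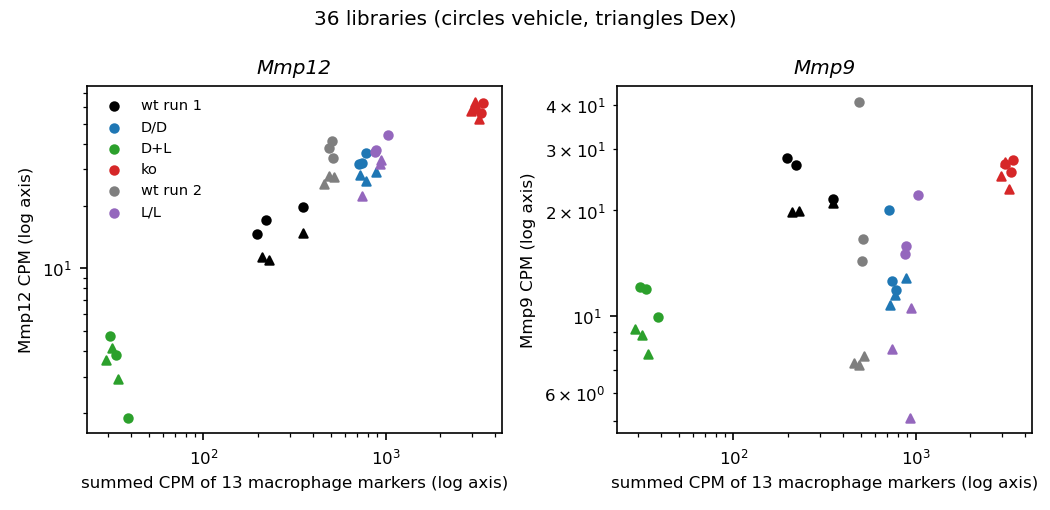
CPM of Mmp12 (left) and Mmp9 (right) against the summed CPM of 13 macrophage markers in 36 libraries on log axes, coloured by genotype, with circles for vehicle and triangles for Dex. The D+L libraries lie at the lower left and the ko libraries at the upper right for Mmp12, while Mmp9 in the ko libraries lies within the range of wild type.

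Beyond the set, 38 genes of a fixed list act on or beside these proteases, and 35 of them were tested. Of 16 tested genes of activation, inhibition and clearance, 1 rose and 3 fell with Dex in GRwt/wt of run 1 (all genes: 7.74% higher and 6.2% lower), and 4 rose and 3 fell in run 2 (all genes: 14.9% higher and 16.7% lower). In GRD/D 0 rose and 4 fell (all genes: 5.63% higher and 6.24% lower), and in GRD+L/D+L 0 and 2 (all genes: 3.08% and 1.92%). In GRko/ko 0 rose and 0 fell (all genes: 0% and 0%), and in GRL/L 3 and 4 (all genes: 8.79% and 10.4%). The falls in GRwt/wt were the same genes in both runs, the plasminogen activators Plat and Plau and the urokinase receptor Plaur, which make or hold plasmin, an activator of several Mmp precursors. Plau fell by 0.95 ± 0.06 log2 units in GRwt/wt of run 1, by 0.90 ± 0.05 in GRD/D, by 0.66 ± 0.05 in GRD+L/D+L and by 0.74 ± 0.06 in GRL/L, with −0.02 ± 0.05 in GRko/ko. Plat fell in the same 4 genotypes, by 0.46 ± 0.09, 0.31 ± 0.09, 0.44 ± 0.10 and 0.76 ± 0.08.

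Of 15 other matrix proteases, 5 rose and 1 fell in run 1 of GRwt/wt, and 7 rose and 4 fell in run 2, beside the same shares of all genes. In GRD/D 1 rose and 0 fell (all genes: 5.63% higher and 6.24% lower), and in GRD+L/D+L 1 and 1 (all genes: 3.08% and 1.92%). In GRko/ko 0 rose and 0 fell (all genes: 0% and 0%), and in GRL/L 3 and 2 (all genes: 8.79% and 10.4%). Of the 4 lecticans, which the aggrecanases cut, Vcan (versican) rose with Dex in GRwt/wt of run 1 (0.53 ± 0.08, adjusted p = 1.57e-06), GRwt/wt of run 2 (1.15 ± 0.08) and GRL/L (0.93 ± 0.08). It did not pass in GRD/D (0.08 ± 0.08) or GRD+L/D+L (0.18 ± 0.08). In the test of the response against GRwt/wt of run 1, 0 of the 4 lecticans passed in GRD+L/D+L (all genes: 3.23%). In GRD/D 1 passed, as lower (all genes: 3.29%, with 2.2% lower). The other lecticans passed in no Dex comparison except Ncan, which was lower in GRL/L (−0.96). Spock2, a matrix proteoglycan, rose in both genotypes of run 2 (2.45 ± 0.20 in GRwt/wt and 2.18 ± 0.19 in GRL/L).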

How the data were processed

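The authors sequenced TruSeq libraries on a NextSeq, mapped them to mm10 (HISAT2 2.1.0), used only reads with a unique position and assigned them to genes (featureCounts 2.0.0, versions per the labels). The deposited table holds raw counts of 36 libraries, without normalization or filter. The annotation and strand setting are not given in the sources used here. Groups came from the sample labels.

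Counts were tested with edgeR 4.0.16 (limma 3.58.1, R 4.3.3): TMM scaling, filterByExpr by the 12 groups (minimum count 10), and the quasi-likelihood F test on contrasts, with the difference of Dex responses as an interaction. The biological coefficient of variation was 0.0513. The paper's formula, which pools GRwt/wt of both runs, was run as an alternative. Standard errors were derived from the log2 fold change and its F (size over root F), and intervals are 95% and approximate. A count of 3 or fewer was taken as the floor, under which no fold is given. No pair of libraries from one group was a near-copy (median chi-square 1.38 to 6.03 times sampling noise). P-values rest on the spread between libraries within groups, estimated for each gene from all 36 libraries in one model. A group with a wider spread was therefore not given an estimate of its own. The series design attributes the cultures to different mice. However, all cultures of a genotype and run had one sex by Xist and Y-linked counts, and no label ties a culture to its embryo. Whether this spread is that between animals or that between wells of a shared culture cannot be told here.

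The members, gene lists and named genes were chosen with earlier results of these data known. Genes are named by this rule: members that pass a Dex comparison with a log2 change of 1 or more in size, the 3 smallest adjusted p among those that pass in each comparison, and a fixed list of TIMPs, MMPs and ADAMTS genes that is always named. Mmp8, Mmp16, Mmp27, Mmp28, Adamts6, Adamts8 and Adamts20 fall outside it and were named after their values were seen, as were the genes named from the pathway list. Some genes of that list are not reported here. Symbols and coordinates came from GENCODE vM21 on GRCm38, and 55141 of the 55487 identifiers had a symbol.

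Alternatives were DESeq2 1.42.0, its size factors in edgeR, no filter, at least 10 counts in every library, the libraries of one run alone, the paper's formula, the replicate number as a block, a fold limit, and each library left out. On simulated counts for 15489 genes with 200 changed, edgeR recovered 83.6% of changes of 1 log2 unit for Dex in GRwt/wt of run 1 (4 false of 167 calls), 73.1% in GRD/D (7 of 119) and 64.2% for the GRD/D response difference (4 of 79), where it recovered 40.3% at 0.5, and called 0 genes in GRko/ko, where none was changed. Figures used matplotlib 3.10.9 in Python 3.11.15.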

Additional observations from a re-analysis of the deposited data

Results flagged for a closer look

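These results were singled out because the Dex response differed between genotypes, or between the runs of GRwt/wt, in a test of the difference itself (edgeR, interaction contrast, adjusted over all genes). Values are differences of log2 fold changes.

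Against GRwt/wt of run 1, GRD/D differed in Adamts1 (−1.43), Adamts5 (−0.67), Mmp11 (0.68) and Mmp28 (0.77, adjusted p = 0.0433). Mmp28 had 67, 67 and 91 counts in GRD/D with vehicle and 69, 102 and 99 with Dex, and its own Dex change passed in neither genotype. GRD+L/D+L differed in Adamts1 (−1.27), Adamts5 (−0.44) and Timp3 (0.27). GRko/ko differed in Adamts1 (−2.19), Adamts4 (0.87), Adamts5 (−0.46), Mmp10 (0.95), Timp1 (0.32) and Timp3 (0.74). Of these, Mmp10 did not pass without Dex library 2 of GRko/ko (0.87) or Dex culture 1 of GRwt/wt (0.83), and Timp1 was lost in 9 of the libraries left out in turn.

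Against GRwt/wt of run 2, GRL/L differed in Adamts1 (−0.35), Adamts4 (0.52), Adamtsl2 (−1.33) and Timp3 (0.24). The Adamts4 value ran from 0.44 to 0.51 in the 6 cases where leaving out a library lost it.

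Between GRwt/wt of run 2 and run 1, the responses differed in Adamts1 (−0.54), Adamts4 (−0.57), Adamtsl1 (−0.61), Adamtsl2 (2.06), Mmp10 (−1.53), Mmp13 (−0.96), Mmp9 (−1.35), Timp1 (−0.71) and Timp3 (−0.51). Without vehicle culture 6 of run 2, Mmp9 (−0.72, adjusted p = 0.0718) and Mmp13 (−0.75, adjusted p = 0.105) did not pass. Without Dex culture 3 of run 1, Mmp13 (−0.52) and Adamts4 (−0.50) did not pass, and Adamtsl1 was lost without any of 4 libraries. Run, sex and culture cannot be told apart in these differences.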

How the results depend on the processing

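With a log2 fold change of at least 1 in size as well, the members passing with Dex were 2 in GRwt/wt of run 1, 12 in run 2, 1 in GRD/D, 0 in GRD+L/D+L and 4 in GRL/L. For vehicle levels they were 3 in GRD/D, 10 in GRD+L/D+L, 11 in GRko/ko and 1 in GRL/L, and for responses 2 in GRD/D, 1 each in GRD+L/D+L, GRko/ko and GRL/L, and 3 between the runs. With no filter on low counts, 5 passed for Dex in GRD+L/D+L and 11 for the response of GRL/L. With GRwt/wt of both runs pooled and run as a term, 30 passed for Dex in GRwt/wt, and the response counts were 8 in GRD/D, 9 in GRD+L/D+L, 14 in GRko/ko and 1 in GRL/L, where the Timp3 response difference turned to −0.014. The cause was not tested. Shares of all genes passing without the filter, with the pooled formula, with the replicate block or with a library left out are not given here. Member counts under these settings are therefore not set against a background. DESeq2 gave 1 for GRD+L/D+L against GRD/D.

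With each library left out in turn, Dex counts were 8 to 11 and 27 to 30 in GRwt/wt, 5 to 14 in GRD/D, 2 in GRD+L/D+L, 0 in GRko/ko and 14 to 15 in GRL/L. Vehicle counts were 7 to 13 in GRD/D, 26 to 29 in GRD+L/D+L, 27 to 29 in GRko/ko and 7 to 9 in GRL/L. Response counts were 3 to 6 in GRD/D, 3 in GRD+L/D+L, 5 to 6 in GRko/ko, 2 to 4 in GRL/L, 0 between the mutants and 6 to 12 between the runs. The 139 results for named genes were each rerun without each library concerned. The call was kept in 898 of these reruns and lost in 92, so these numbers count reruns and not results.

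The replicate numbers did not pair the cultures: same-numbered libraries correlated at −0.0787 to 0.116, and 7 of 18 cultures correlated best with their own number. With the replicate block, Dex counts were 10 and 29 in GRwt/wt, 9 in GRD/D and 18 in GRL/L, and 3 named results lost their call: Mmp12 in GRwt/wt of run 1 (−0.47), the Timp3 response of GRL/L (0.24) and Timp4 in GRD/D. No paired analysis was possible for GRL/L vehicle levels because its numbers and those of GRwt/wt in run 2 share none. Low counts limit Timp4, Mmp8, Mmp27, Mmp1b, Adamts8 and Adamts17.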
